A study of Mus musculus with 14 samples.

Results

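The nuclear-encoded genes of the mitochondrial respiratory chain and ATP synthase were followed in mouse embryonic fibroblasts undergoing cardiac reprogramming. They were chosen by symbol: a feature of the array entered when the single gene symbol annotated to it was a Nduf, Sdh, Uqcr, Cox4 to Cox8 or Atp5 symbol, and Cox6a1, Cox6a2, Cox7a1, Cox7a2, Cox8a and Cox8b were left out. The rule found 91 genes among the 22206 features other than controls, and it used no measured value. By complex, 44 belonged to complex I, 8 to complex II, 8 to complex III, 14 to complex IV and 17 to complex V, with Ndufa4 and Ndufa4l2 placed in complex IV. By role, 74 were structural subunits (with the supercomplex factor Cox7a2l), 12 were assembly factors and 5 were tissue- or condition-restricted isoforms of cytochrome oxidase (Cox4i2, Cox6b2, Cox7b2, Cox8c and Ndufa4l2). All 91 matched a mouse RefSeq gene by gene ID and all had a value in every array. Ndufb4b is a near copy of Ndufb4, so the values of this pair may share signal. The cytochrome c1 gene Cyc1, a complex III subunit whose symbol the rule does not match, was followed with the electron carriers.

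All cells had been transduced with retroviral Gata4, Hand2, Mef2c and Tbx5 (GHMT), the cocktail that drives fibroblasts toward induced cardiomyocytes, and were grown on Matrigel-based hydrogels of 8 kPa or 126 kPa. GHMT/126 kPa and GHMT/8 kPa differed in the stiffness of the gel. On 126 kPa, cells also received lentiviral scramble shRNA (GHMT/Scramble), shRNA to YAP (GHMT/shYAP) or shRNA to TAZ (GHMT/shTAZ). On 8 kPa, cells also received retroviral YAP-5SA or TAZ-4SA, constitutively active mutants of these mechanosensitive coactivators (GHMT/YAP-5SA and GHMT/TAZ-4SA). RNA was taken after 2 weeks from the whole culture, transduced or not, and each of the 7 groups had 2 Clariom S Mouse arrays from independent biological samples. Because whole cultures were measured, fewer cells of a type and less RNA per cell cannot be told apart in any value below.

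The respiratory chain passes electrons from NADH through complex I, and from succinate through complex II, to ubiquinone, then through complex III and cytochrome c to complex IV, which reduces oxygen. Complexes I, III and IV pump protons, and complex V uses the gradient to make ATP. Most subunits are encoded in the nucleus, while a small core set is encoded by mitochondrial DNA, and working cardiomyocytes are known for a high content of all of these complexes.

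Nuclear respiratory genes are known for promoters that bind NRF1, ETS factors such as GABP, and estrogen-related receptors (ERR), the partners of the coactivator PGC-1α. RefSeq promoter windows (GRCm38.p6, the 250 bases before an annotated transcript start) were matched for 76 of the 91 genes, 15 had no entry, and 5 had several windows, of which the first listed was read. In 60 of the 76 the transcript start was also the outermost start of the gene, and in 5 (Atp5d, Atp5g3, Cox5a, Ndufa13 and Ndufs7) it lay over 250 bases inside the gene. On either strand, the NRF1 motif (GCGCA, any base, then GCGC) was present in 12 of the 76 windows (15.8%) and in 5.63% of the windows of 15691 array genes. The ETS motif CCGGAAG was present in 14 (18.4%) against 9.42%, and the ERR motif TCAAGGTCA in 1 (1.32%) against 0.293%. The TEAD motif CATTCC, named for the DNA-binding partners of YAP and TAZ, was present in 7 (9.21%) against 11.5%. The windows of 67 mitochondrial ribosomal protein genes held the NRF1 motif in 14.9% and the ETS motif in 23.9%. Matches are descriptions of letters, and the arrays measured no binding. Windows of 4 genes described below, each with a match in capitals, are shown 5′ to 3′ as genes on the minus strand read, because they hold the 3 motifs in genes of complexes I, II, III and V. Ndufs3 (complex I) and Uqcrh (complex III) hold the ETS motif, Sdha (complex II) holds the NRF1 motif 3 times, and Atp5g3 (complex V) is the only window of the 76 with the ERR motif. The Atp5g3 window precedes a transcript start 1138 bases inside the gene, while the other 3 lie directly before the gene.
Ndufs3, chr2:90904722-90904971: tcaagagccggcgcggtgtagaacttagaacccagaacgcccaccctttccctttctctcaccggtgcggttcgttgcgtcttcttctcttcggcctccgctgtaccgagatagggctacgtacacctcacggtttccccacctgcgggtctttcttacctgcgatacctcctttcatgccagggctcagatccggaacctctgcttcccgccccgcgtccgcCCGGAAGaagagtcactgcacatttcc
Sdha, chr13:74350241-74350490: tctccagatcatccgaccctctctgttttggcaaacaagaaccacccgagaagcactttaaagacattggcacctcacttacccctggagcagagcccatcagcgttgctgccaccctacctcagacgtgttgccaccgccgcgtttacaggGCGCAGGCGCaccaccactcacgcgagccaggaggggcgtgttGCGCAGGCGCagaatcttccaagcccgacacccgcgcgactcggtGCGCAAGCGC
Uqcrh, chr4:116075071-116075320: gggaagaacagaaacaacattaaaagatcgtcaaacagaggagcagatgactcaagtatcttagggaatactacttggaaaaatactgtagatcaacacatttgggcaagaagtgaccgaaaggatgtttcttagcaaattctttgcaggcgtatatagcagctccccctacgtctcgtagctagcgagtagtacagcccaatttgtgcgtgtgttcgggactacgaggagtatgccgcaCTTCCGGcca
Atp5g3, chr2:73911327-73911576: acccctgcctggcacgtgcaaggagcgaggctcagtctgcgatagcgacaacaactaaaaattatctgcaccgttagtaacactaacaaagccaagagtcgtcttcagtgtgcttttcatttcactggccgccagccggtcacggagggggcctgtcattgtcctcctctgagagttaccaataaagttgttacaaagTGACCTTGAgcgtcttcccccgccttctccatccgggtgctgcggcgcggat

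The deposited values are log2 ratios that the authors made in 3 sets. In the stiffness set the ratio of each feature is to the mean of the GHMT/126 kPa arrays, and in the shRNA set to the mean of the GHMT/Scramble arrays. For the mutant arrays no source used here names the reference, so their values against 0 are described without a test. Ratios carry no signal level, so genes are not compared by abundance, and whether the fibroblast markers were present could not be read. A difference below is between means of 2 arrays, its SE and p are from limma within a set, and p-values were adjusted by Benjamini-Hochberg over all features tested. Replicate arrays of a group differed by a median of 0.062 (GHMT/shTAZ) to 0.14 (GHMT/YAP-5SA) over the 91 genes. Markers of another cell type set arrays apart: all 19 macrophage markers on the array were above 0 in scramble array 1 (median 1.15) and below 0 in scramble array 2 (median -1.15). Compared with their controls, 18 of the 19 were lower without overlap on 8 kPa (median difference -1.40), with shYAP (-3.06) and with shTAZ (-5.03). The respiratory chain genes had medians of -0.016 and 0.016 in the same 2 scramble arrays.

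**Figure D1:**
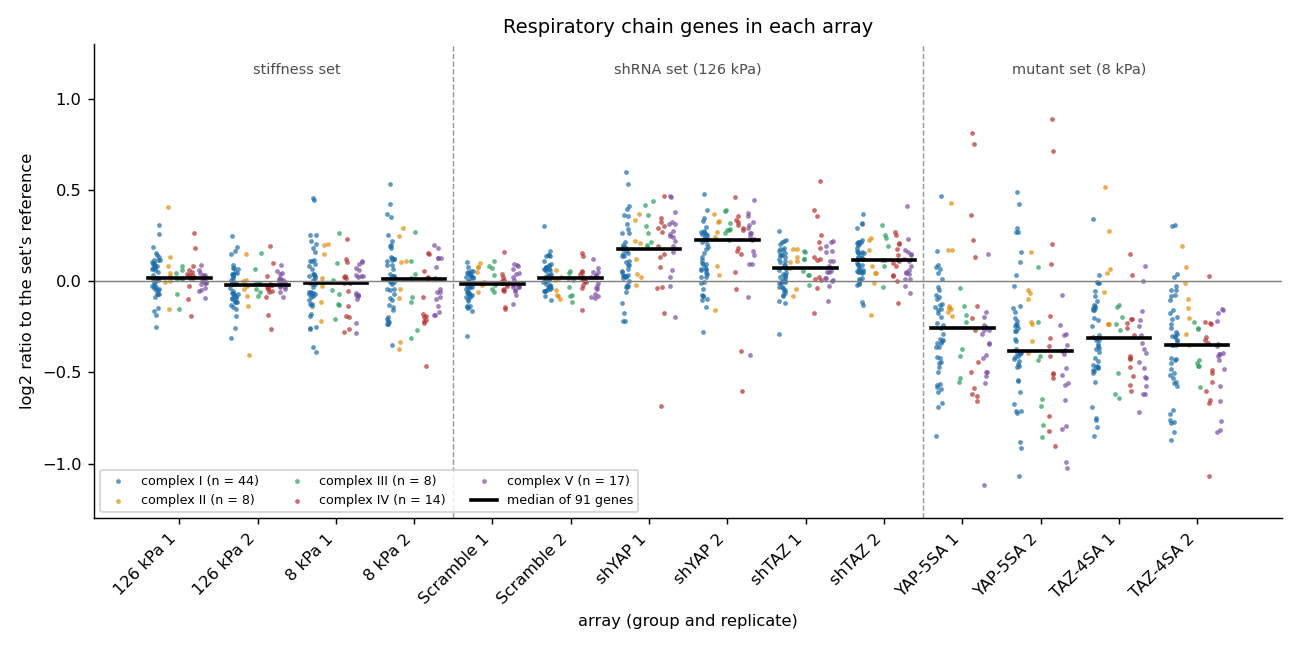
Log2 ratio to the reference of its set (vertical axis) of each of the 91 respiratory chain genes in each of the 14 arrays (horizontal axis), coloured by complex, with black bars for the median of the 91 genes. The median is near 0 in both 8 kPa arrays (-0.012 and 0.0100), 0.18 and 0.23 in the shYAP arrays, 0.070 and 0.11 in the shTAZ arrays, and between -0.39 and -0.26 in the 4 mutant arrays.

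Between the soft and the stiff gel the respiratory chain genes differed by a median close to 0, with genes on either side. Of the 91 genes, 43 were above the 126 kPa mean (55.7% of all features) and 48 below it, and the median difference (8 kPa minus 126 kPa) was -0.013, beside 0.034 over all 22206 features. The SD of the differences over the 91 genes was 0.15, beside 0.32 over all features. By complex the medians were -0.00026 (I), 0.058 (II), -0.022 (III), -0.060 (IV) and -0.021 (V). In limma 0 of the 91 passed in either direction (0% of all features passed as higher and 0.0721% as lower), and at an unadjusted p under 0.05 there were 0 higher (5.95% of all features) and 1 lower (4.69%). Groups did not overlap for 18 genes that were higher on 8 kPa (24.3% of all features) and 23 that were lower (17.8%), so neither count stood far from the share over all features. The 10 cardiac markers had a median difference of 0.028 in the same arrays.

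The gene at an unadjusted p under 0.05 was Ndufs3, a core subunit of the matrix arm of complex I. Its values were -0.39 and -0.35 on 8 kPa and -0.02 and 0.02 on 126 kPa, a difference of -0.37 (SE 0.13, adjusted p = 0.443 from limma). Both soft-gel arrays lay below both stiff-gel arrays, but the gene did not pass the test over all features. Ndufs7, which carries the last iron-sulfur cluster before ubiquinone, was at -0.26 and -0.22 on 8 kPa, against 0.02 and -0.02 on 126 kPa. Ndufs1, the largest core subunit of complex I, was at 0.25 and 0.20, against 0.06 and -0.06. Core subunits of the same complex thus lay on opposite sides of 0 on the soft gel, and the limma differences were -0.24 for Ndufs7 (adjusted p = 0.595) and 0.23 for Ndufs1 (adjusted p = 0.631).

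The largest difference of the set belonged to Ndufaf8, an assembly factor of complex I that partners Ndufaf5. It measured 0.45 and 0.53 on 8 kPa and -0.25 and 0.25 on 126 kPa (difference 0.49, SE 0.21, adjusted p = 0.491 from limma), so the groups did not overlap while the 126 kPa arrays were themselves far apart. Ndufaf7, the methyltransferase that modifies a core subunit during assembly, was at 0.44 and 0.09 (difference 0.27). Among accessory subunits, Ndufa10 was at 0.20 and 0.42 (difference 0.31), Ndufv3 differed by 0.30 and Ndufa9 by 0.24, while Ndufb4b was at -0.36 and -0.21 (difference -0.28). In complex II the assembly factor Sdhaf3 differed by -0.24, but its 126 kPa arrays were at 0.40 and -0.40 and it was 0.16 without the first of them. In complex III, Uqcrfs1, the Rieske iron-sulfur protein, was at -0.21 and -0.27, below both 126 kPa arrays (difference -0.24). In complex IV the ubiquitous subunits Cox4i1 (-0.28 and -0.20) and Cox5a (-0.14 and -0.22) lay below their 126 kPa arrays, with differences of -0.24 and -0.18. Cox4i2, the isoform associated with lung and low oxygen, was at 0.02 and -0.23, and Ndufa4l2 at 0.23 and -0.19, both overlapping the 126 kPa values. In complex V the F1 genes were near 0: Atp5a1 at 0.07 and 0.13, and Atp5b at 0.04 and 0.02. None of these genes passed the test.

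With shRNA to YAP, most structural subunits lay above scramble, 65 of 74 by their means, and 9 lay below, among them Atp5e, Ndufab1 and Cox7a2l. Of the 91 genes 76 were above the scramble mean (58.5% of all features) and 15 below it, with a median difference (shYAP minus scramble) of 0.18 beside 0.050 over all 22122 features. The median was 0.22 for the 74 structural subunits and 0.03 for the 12 assembly factors. By complex the medians were 0.12 (I), 0.17 (II), 0.30 (III), 0.18 (IV) and 0.24 (V). All 8 genes of complex III, all 8 of complex II and all 6 core subunits of complex I were above the scramble mean.

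No single gene passed limma: 0 of 91 were higher (0.321% of all features) and 0 lower (0.212%). Before adjustment 27 genes had a p under 0.05 and were higher (11.4% of all features) and 2 were lower (7.39%), of which 26 and 1 were structural subunits. Groups did not overlap for 60 genes that were higher (31% of all features) and 6 that were lower (19.6%). The 60 held all 8 genes of complex III, 8 of the 8 ubiquitous subunits of complex IV, 14 of 17 of complex V and 24 of 44 of complex I. Without scramble array 1 or scramble array 2, 67 genes lay above the remaining scramble array in both shYAP arrays, and the median was 0.16 or 0.19. Fewer arrays must differ for that count, and its share over all features was not computed, so it cannot be set beside the 60. With scramble array 1 as the only control, a gene's own spread comes from the shYAP and shTAZ arrays alone, and the calls for 2 genes changed with that choice: Ndufa5 (adjusted p = 0.0267 from limma, 0.131 with both scramble arrays) and Atp5g3 (0.0469, and 0.121 with both). Beside these values the cardiac markers had a median difference of 0.84 with shYAP, with 8 of 10 higher and 2 lower without overlap. Nppa was among the lower ones (difference -1.91, adjusted p = 0.048 from limma). Of 9 fibroblast markers 6 were higher and 1 was lower without overlap (median difference 0.24). The macrophage markers had the -3.06 given above, and the part of any of these cell types in the result was not tested.

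The differences were small for each gene. Both shYAP arrays lay beyond both scramble arrays only in the 60 higher and 6 lower genes given above. In complex I, the accessory subunit Ndufa5 was at 0.53 and 0.48 with shYAP and at -0.14 and 0.14 with scramble (difference 0.51, a fold of 1.42, SE 0.12, adjusted p = 0.131 from limma). Ndufv1, which binds NADH and the flavin that takes its electrons, was at 0.41 and 0.39 against -0.11 and 0.11 (difference 0.40, adjusted p = 0.157). Ndufs1 was at 0.40 and 0.27 against -0.03 and 0.03 (difference 0.34, adjusted p = 0.176). In each of these genes both shYAP arrays stood above both scramble arrays. The accessory subunit Ndufa1 was at 0.36 and 0.35 (difference 0.35), and the assembly factor Ndufaf5, the hydroxylase of Ndufs7, was at 0.60 and 0.26 (difference 0.43).

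In complex II the flavoprotein gene Sdha was at 0.21 and 0.37 against -0.02 and 0.02 (difference 0.29, adjusted p = 0.231 from limma), whereas Sdhb, its iron-sulfur partner, was at -0.02 and 0.08 and overlapped scramble. The membrane anchors Sdhc (0.37 and 0.33) and Sdhd (0.34 and 0.32) lay above both of their scramble arrays, so 3 of the 4 subunits of the enzyme stood apart from scramble. In complex III the hinge protein gene Uqcrh was at 0.44 and 0.39 against 0.07 and -0.07 (difference 0.41, adjusted p = 0.137), Uqcrc1 was at 0.42 and 0.28 (difference 0.35), and Uqcrfs1 was at 0.30 and 0.28 (difference 0.29).

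In complex IV, Ndufa4, once counted to complex I, was at 0.46 in each shYAP array and at -0.04 and 0.04 with scramble (difference 0.46, SE 0.098, adjusted p = 0.107 from limma, and 0.0473 in a fit to all 14 arrays). The 14-array fit pools the spread of all 3 sets, and its values are quoted only where they fell below 0.05. Its share of all features past the test was not computed, so these values have no background beside them. Cox5a was at 0.19 and 0.31 (difference 0.25) and Cox4i1 at 0.08 and 0.16 (difference 0.12), neither overlapping scramble. The 5 restricted isoforms were divided, with 2 above scramble and 3 below. Cox8c was at 0.29 and 0.18 against -0.02 and 0.02 (difference 0.23), above scramble like the ubiquitous subunits, and Cox7b2 overlapped scramble (difference 0.16). Cox6b2, the testis isoform of a subunit on the intermembrane face, was at -0.68 and -0.60 with shYAP and at -0.15 and 0.15 with scramble, the largest difference of the set (-0.64, SE 0.14, adjusted p = 0.106, and 0.0336 in the fit to all 14 arrays). Cox4i2 was at -0.03 and -0.04, and Ndufa4l2 was at 0.33 and -0.38, its replicates on opposite sides of scramble.

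In complex V the 3 genes for the c-ring, the rotor that protons turn, encode the same mature protein behind different import sequences. Atp5g3 was at 0.46 and 0.45 against -0.07 and 0.07 (difference 0.45, adjusted p = 0.121 from limma), and Atp5g1 was at 0.47 and 0.37 against -0.12 and 0.12 (difference 0.42, adjusted p = 0.184). Atp5g2 was at -0.03 and -0.09 and overlapped scramble, so the c-ring genes did not lie together. The catalytic F1 genes Atp5a1 (0.31 in each array) and Atp5b (0.32 and 0.33) lay above scramble with differences of 0.31 and 0.32, and so did Atp5o, the stalk protein that gives the enzyme its oligomycin sensitivity (0.38 and 0.36, difference 0.37). Atp5e, the smallest F1 subunit, was at -0.20 and -0.40 against 0.09 and -0.09.

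**Figure D2:**
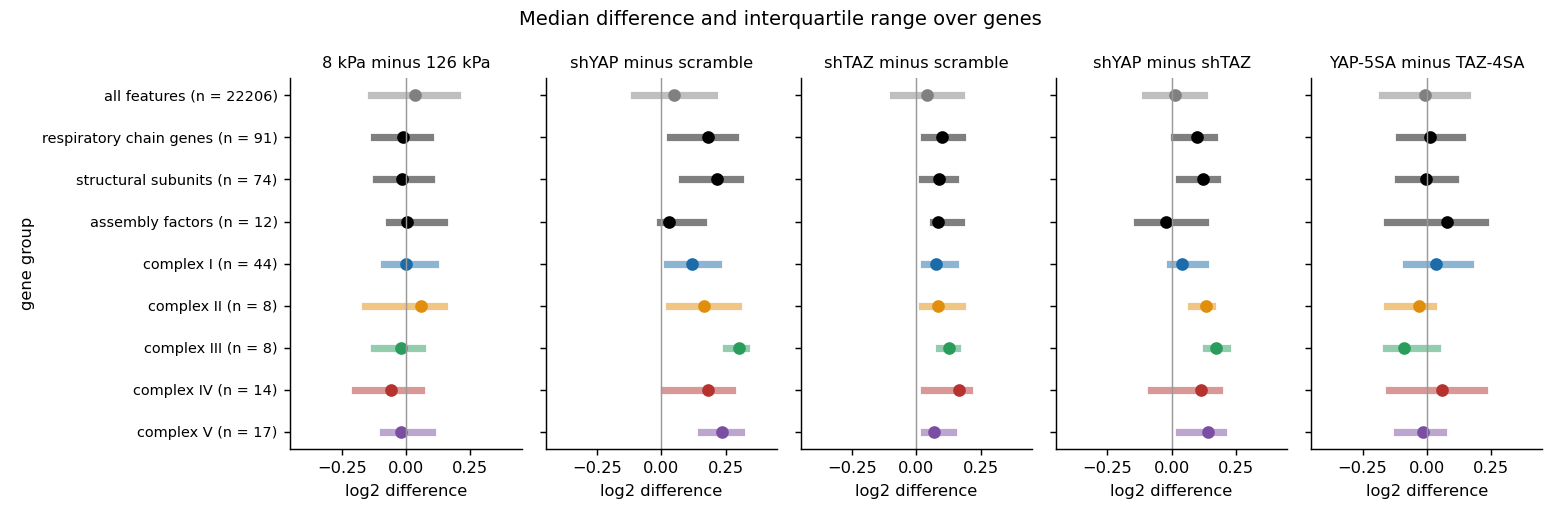
Median (points) and interquartile range (bars) over genes of the log2 difference between group means, for all features and for groups of respiratory chain genes (vertical axis), in 5 comparisons; n is for the stiffness set, where 22206 features were tested. With shYAP the structural subunits have a median of 0.22 beside 0.050 for all features, while on 8 kPa and between the mutants the groups lie around 0.

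With shRNA to TAZ, most of the genes also lay above scramble, by less. Of the 91, 78 were above the scramble mean (59% of all features) and 13 below it, with a median difference (shTAZ minus scramble) of 0.098 beside 0.043 over all features. By complex the medians were 0.078 (I), 0.085 (II), 0.13 (III), 0.17 (IV) and 0.068 (V). Within complex IV the 8 ubiquitous subunits had a median of 0.085 (7 above scramble) and the 5 restricted isoforms one of 0.24 (all 5 above). The assembly factors (0.085) and the structural subunits (0.086) had nearly the same median. In limma 0 of 91 were past the test in either direction (0% of all features in each), and with a p under 0.05 before adjustment 2 were higher (8.68% of all features) and 0 lower (5.71%). Groups did not overlap for 50 genes that were higher (28.6% of all features) and 2 that were lower (17.9%). Without scramble array 1 the median was 0.071, and without scramble array 2 it was 0.11. The shTAZ and shYAP comparisons share the scramble arrays. Cardiac markers had a median difference of 0.68 with shTAZ (8 of 10 higher and 1 lower without overlap). The 9 fibroblast markers had a median difference of 0.20 (5 higher and 1 lower without overlap), and the macrophage markers one of -5.03. The part of these cell types was not tested.

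The 2 genes at an unadjusted p under 0.05 were Cox8c, a testis isoform of complex IV, at 0.39 and 0.27 (difference 0.33, adjusted p = 0.260 from limma), and the accessory subunit Ndufb2 at 0.18 and 0.32 (difference 0.25, adjusted p = 0.343). Cox4i2 had the largest difference, 0.35 (SE 0.15, adjusted p = 0.365 from limma), from arrays at 0.55 and 0.14 that were far apart but both above scramble. Atp5g1 was at 0.22 and 0.41 (difference 0.32) and Ndufa1 at 0.22 and 0.29 (difference 0.25). Among the catalytic subunits, Ndufs1 was at 0.22 and 0.21 (difference 0.22), Ndufv1 at 0.18 and 0.20 (difference 0.19) and Atp5b at 0.17 and 0.16 (difference 0.16). Ndufa4 was at 0.22 and 0.20 (difference 0.21), again with 2 close arrays above scramble. Ndufa4l2 was at 0.36 and 0.12 and Ndufb3 at 0.28 and 0.15, while Ndufaf2 was at 0.17 and 0.37 and overlapped its scramble arrays of -0.30 and 0.30. Cox4i1 and Cox5a, which had stood above scramble with shYAP, were close to the scramble arrays with shTAZ. Cox4i1 (-0.039 and 0.0029) overlapped them, and Cox5a (0.01 and 0.03) lay narrowly above them (0.0070 and -0.0070).

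The 2 knockdowns were also set against each other, since an excess over the shared control in each says nothing of their difference. Of the 91 genes 71 were higher with shYAP (53.1% of all features) and 20 with shTAZ, with a median difference (shYAP minus shTAZ) of 0.099 beside 0.012 over all features. In limma 0 of 91 passed in either direction (0.0316% and 0.0136% of all features), and with a p under 0.05 before adjustment 5 were higher (3.93%) and 4 lower (4.17%). Groups did not overlap for 45 genes that were higher with shYAP (23.6% of all features) and 8 that were lower (20.6%). All 8 ubiquitous subunits of complex IV and 7 of the 8 genes of complex III were among the 45, while the 12 assembly factors had a median of -0.024. Macrophage markers were higher with shYAP than with shTAZ in the same arrays (18 of 19 without overlap, median 1.71), and their part in these differences was not tested.

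Atp5pb, the b subunit of the peripheral stalk, was at 0.26 and 0.29 with shYAP and at -0.11 and -0.07 with shTAZ (difference 0.36, adjusted p = 0.515 from limma). Ndufa5, Atp5g3 and Uqcrh followed, with differences of 0.36, 0.31 and 0.28, and in each gene both shYAP arrays lay above both shTAZ arrays. Cox6b2 went the other way. Its shTAZ arrays were at 0.25 and 0.11 against -0.68 and -0.60 with shYAP, a difference of -0.83 (SE 0.14, adjusted p = 0.217 from limma, and 0.0424 in the fit to all 14 arrays). Cox4i2 (difference -0.38), Atp5e (-0.31), the assembly factor Ndufaf6 (-0.29) and Ndufb3 (-0.26) were also lower with shYAP without overlap. Within complex IV, all 5 restricted isoforms were lower with shYAP by their means, but only 2 of them, Cox6b2 and Cox4i2, without overlap. All 8 ubiquitous subunits were higher without overlap. Ndufa4l2 differed by -0.26, but its shYAP replicates were too far apart to place it.

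In the arrays of the active mutants on 8 kPa, most respiratory chain genes were below the reference of their set. In all 4 arrays 69 of the 91 genes were below 0 (20.6% of all features) and 1, the assembly factor Ndufaf7, was above 0 in all 4 (26.8%). The median of the gene means was -0.34, beside 0.038 over all 22127 features. Structural subunits were below 0 in all 4 arrays in 64 of 74 cases, against 5 of 12 for the assembly factors. By complex these counts were 36 of 44 (I), 3 of 8 (II), 7 of 8 (III), 8 of 14 (IV) and 15 of 17 (V). All 6 core subunits of complex I and all 8 ubiquitous subunits of complex IV were among them. As the reference is not stated, nor whether its arrays were run with these, a difference between runs and an effect of the mutants cannot be told apart. In the same 4 arrays 8 of the 10 cardiac markers were below 0 throughout (median of means -1.65), as were 16 of the 19 macrophage markers (-2.23), while of 9 fibroblast markers 5 were above 0 and 3 below 0 throughout (median of means 0.37, from -1.52 to 0.78), and the part of cell makeup was not tested.

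The lowest gene was Atp5g1, at -1.12 and -1.02 with YAP-5SA and at -0.72 and -0.77 with TAZ-4SA. The other c-ring genes were nearer to 0: Atp5g3 between -0.29 and -0.16, and Atp5g2 between -0.40 and -0.17. The accessory subunits Ndufb9 (mean -0.83) and Ndufa1 (mean -0.81), and the core subunit Ndufv2 (mean -0.76), came next in complex I, where Ndufs1 was at -0.69, -0.72, -0.55 and -0.26. In complex IV, Cox5a was at -0.66, -0.91, -0.60 and -0.55 and Cox4i1 at -0.44, -0.51, -0.42 and -0.65, every array well below the reference. In complex III, Uqcrc1 was at -0.53, -0.68, -0.62 and -0.43, but Uqcrfs1 was at -0.04, 0.08, -0.24 and -0.25 and crossed 0. Complex II stood nearest to the reference (median of means -0.021), but 4 of its 8 genes are assembly factors (median of means 0.011). Among its subunits, Sdha was at -0.17, -0.39, -0.23 and -0.29, Sdhb at -0.15, 0.16, -0.06 and 0.08, and Sdhc at 0.17, -0.24, 0.28 and 0.19. Of the 4 subunits of complex II, Sdha and Sdhd were below 0 throughout, with means of -0.27 and -0.24, beside -0.23 for Atp5a1 of complex V. Complex V's catalytic genes were below 0 in every array, Atp5b between -0.57 and -0.39 and Atp5a1 between -0.29 and -0.15.

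**Figure D3:**
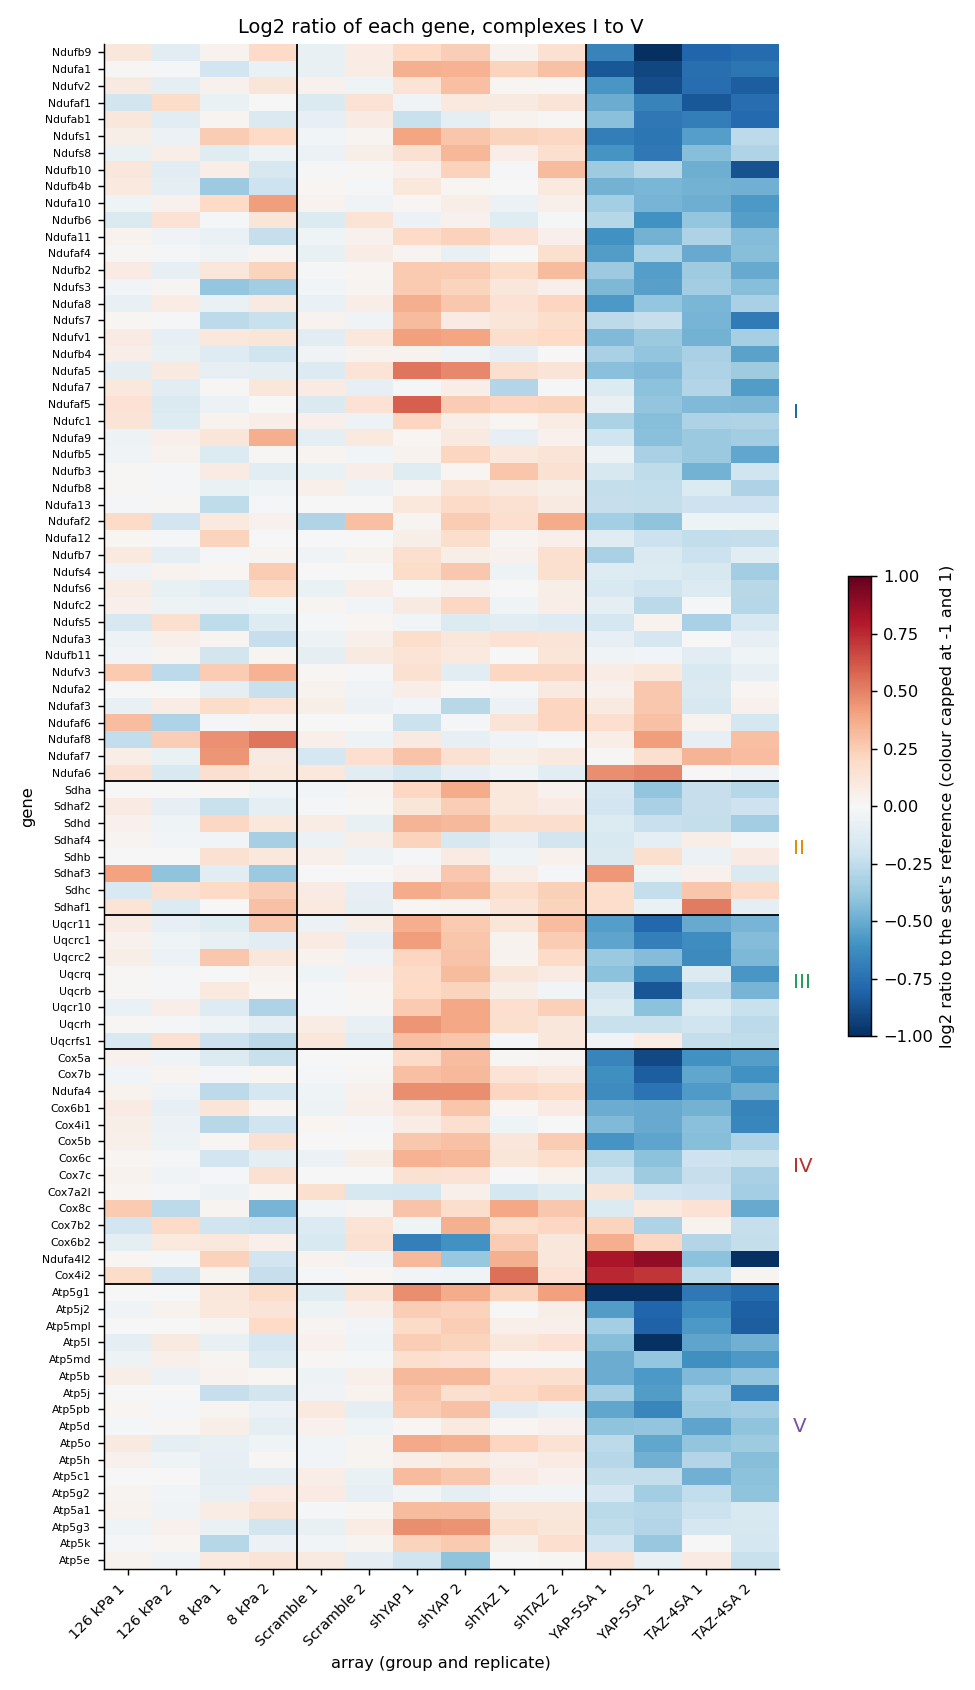
Log2 ratio to the reference of its set (colour, capped at -1 and 1) of each of the 91 genes (rows, grouped by complex and ordered by their mean in the mutant arrays) in each of the 14 arrays (columns); lines part the complexes and the 3 sets. The mutant columns are blue for most rows, the shYAP columns are pale red for most rows, and the bottom rows of complex IV, with Ndufa4l2 and Cox4i2, are red with YAP-5SA only among the mutants.

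Between YAP-5SA and TAZ-4SA the genes as a group did not lie to a side. Of the 91, 47 were higher with YAP-5SA (48.5% of all features) and 44 lower, with a median difference (YAP-5SA minus TAZ-4SA) of 0.014 beside -0.0086 over all features. Groups did not overlap for 23 genes that were higher (21.8% of all features) and 25 that were lower (23.9%). In limma 1 of 91 was higher past the test (0.402% of all features) and 0 lower (0.493%), and with a p under 0.05 before adjustment 4 were higher (6.55%) and 0 lower (7%). The 4 were Ndufa4l2, Cox4i2, Cox6b2 and Ndufa6, so 3 of them were restricted isoforms of complex IV, of which there are 5.

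Ndufa4l2, a paralog of Ndufa4 that is known as a target of the hypoxia-inducible factor HIF-1, was the gene that passed. It was at 0.81 and 0.89 with YAP-5SA and at -0.41 and -1.07 with TAZ-4SA. The YAP-5SA arrays were close together and above the reference, and the TAZ-4SA arrays were below it and further apart. With n = 2 arrays in each group, the difference was 1.59, or 3.01-fold, with an SE of 0.23 and an adjusted p of 0.0399 in limma. It ranged from 1.26 to 1.92 with any of the 4 arrays left out, where 1 array stands for its group and the gene's own spread comes from the other group alone. Ndufa4 itself was at -0.63 and -0.74 with YAP-5SA and at -0.57 and -0.48 with TAZ-4SA, so the paralogs lay on opposite sides of the reference with YAP-5SA and on the same side with TAZ-4SA.

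Cox4i2 was at 0.75 and 0.71 with YAP-5SA and at -0.26 and 0.03 with TAZ-4SA, without overlap (difference 0.84, a fold of 1.79, SE 0.16, adjusted p = 0.0779 from limma, and 0.0293 in the fit to all 14 arrays). Its ubiquitous counterpart Cox4i1 overlapped between the mutants, all 4 arrays lying between -0.65 and -0.42. Cox6b2 was at 0.36 and 0.21 against -0.30 and -0.23 (difference 0.55, SE 0.14, adjusted p = 0.175 from limma). In complex I, Ndufa6, an accessory subunit of the LYR family, was at 0.47 and 0.49 with YAP-5SA and at -0.0040 and -0.024 with TAZ-4SA (difference 0.49, adjusted p = 0.200 from limma). These genes thus had both YAP-5SA arrays above 0 and above both TAZ-4SA arrays.

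Smaller differences ran both ways within complex I. Ndufs7 (difference 0.34), Ndufb10 (0.36) and Ndufaf6 (0.30) were higher with YAP-5SA, and Ndufs1 (-0.30) and Ndufaf2 (-0.32) were lower. Atp5g1 was lower with YAP-5SA by the values given above (difference -0.33, adjusted p = 0.369 from limma), and Uqcrfs1 was higher (0.26). Cardiac markers were lower with YAP-5SA than with TAZ-4SA in the same arrays (8 of 10 without overlap, median difference -1.24), and 18 of 19 macrophage markers were higher with YAP-5SA by their means (median difference 0.58), 2 of them without overlap. Their part in these differences was not tested.

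**Figure D4:**
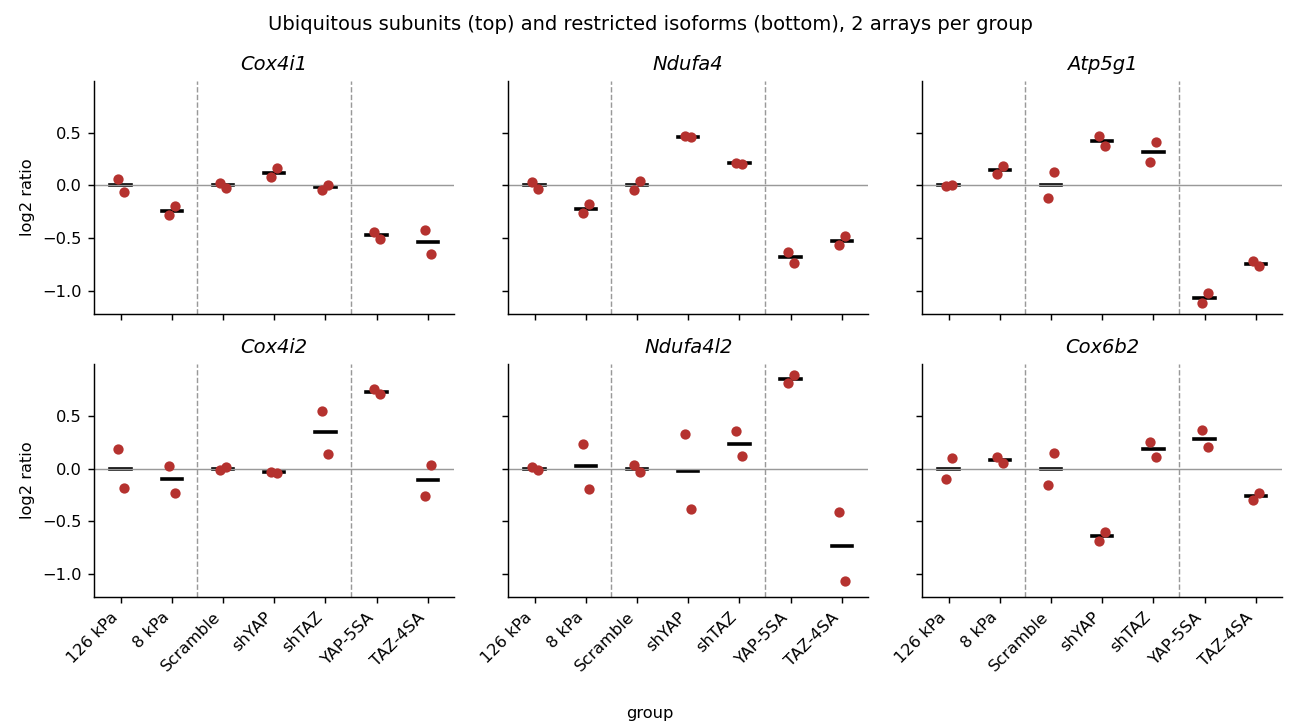
Log2 ratio to the reference of its set (vertical axis) in each of 7 groups (horizontal axis) for 3 ubiquitous subunit genes (top) and 3 restricted isoforms (bottom); points are single arrays and bars are means of 2, and dashed lines part the 3 sets. Cox4i1, Ndufa4 and Atp5g1 are below 0 with both mutants, whereas Cox4i2, Ndufa4l2 and Cox6b2 are above 0 with YAP-5SA, and Ndufa4l2 is at -0.41 and -1.07 with TAZ-4SA.

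Of the other genes of mitochondrial metabolism, those of the TCA cycle, which supplies NADH and succinate, had medians like those of the subunits. With shYAP 13 of its 15 measured genes were above scramble (58.5% of all features), 12 of them without overlap (31%), with a median of 0.20. In the mutant arrays 12 of 15 were below the reference throughout (20.6% of all features, median of means -0.34). On 8 kPa 5 of the 15 were above and 10 below (median -0.029). None of the 15 passed in any of the 5 comparisons, the largest with shYAP being Sucla2 (0.40), Pdha1 (0.38) and Idh3a (0.33). Mitochondrial ribosomal proteins, which translate the subunits encoded by mitochondrial DNA, stayed nearer to 0: of 76, 40 were above and 36 below scramble with shYAP (median 0.036), and 31 were below the reference in all 4 mutant arrays (median of means -0.092). The 30 assembly factors outside the symbol rule had medians of 0.067 with shYAP and 0.0042 on 8 kPa, and 13 were below the reference in all 4 mutant arrays. None of the 13 mitochondrially encoded subunits had a feature with its symbol among those analysed here.

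Electron carriers and the export of ATP gave mixed values. Of 13 carrier genes 10 were above scramble with shYAP (median 0.18), led by Coq8a, a kinase-like protein of ubiquinone synthesis (0.80, SE 0.13, adjusted p = 0.0674 from limma), and Cyc1 differed by 0.32. With YAP-5SA, Coq8a was lower than with TAZ-4SA by a difference of -0.66, and Cycs, the cytochrome c gene, by -0.39. Of 8 genes for ATP export 7 were above scramble with shYAP (median 0.16), with the mitochondrial creatine kinases Ckmt1 at 0.55 and Ckmt2 at 0.35, and all 8 were above the 126 kPa mean on 8 kPa (median 0.099). None of the genes in these 2 lists passed the test in any comparison.

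Among 10 measured regulators of mitochondrial biogenesis, Ppargc1a, which encodes PGC-1α, rose past the test with shYAP (log2 difference 1.85, SE 0.23, adjusted p = 0.0393 from limma), and it was the only regulator past the test in the 5 comparisons. With shTAZ the difference was 1.44 (SE 0.23, adjusted p = 0.107 from limma), on 8 kPa 0.47 (adjusted p = 0.417), and between YAP-5SA and TAZ-4SA -0.67 (adjusted p = 0.200). Esrrg, the gene of an estrogen-related receptor, differed by 0.38 with shYAP, and Tfb1m, which modifies mitochondrial ribosomal RNA, by -0.39. Nrf1 differed by 0.50 between YAP-5SA and TAZ-4SA.

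Glycolysis genes were set beside the respiratory chain genes in each comparison. On 8 kPa 13 of 14 were above the 126 kPa mean (55.7% of all features), 12 without overlap (24.3%). Their median was 0.29, while the respiratory chain genes had a median of -0.013. In limma 0 of the 14 glycolysis genes passed, with 6 higher at an unadjusted p under 0.05 (5.95% of all features). The largest differences were of Aldoc (1.22, adjusted p = 0.164 from limma), Tpi1 (0.75) and Pgk1 (0.73). With shYAP, Hk2, a hexokinase, fell by 1.09 (SE 0.14, adjusted p = 0.0403 from limma), and 11 of 14 were below scramble (median -0.085). Aldoc was among the 3 above scramble (difference 0.70, adjusted p = 0.0918 from limma). With shTAZ 8 of 14 were above scramble, and the median of 0.081 was close to the 0.098 of the respiratory chain genes. Between the mutants Hk2 (1.16, adjusted p = 0.0269 from limma) and Slc2a1, the glucose transporter gene (1.30, adjusted p = 0.0469), were higher with YAP-5SA past the test. Without overlap 12 of 14 were higher (21.8% of all features) and 1 was lower (23.9%), with a median of 0.49. Aldoc went the other way, with means of 1.81 with YAP-5SA and 2.87 with TAZ-4SA (difference -1.05, adjusted p = 0.0615 from limma). Against the reference, 0 of 14 were below 0 in both YAP-5SA arrays (median of means 0.23), while 8 of 14 were below 0 in both TAZ-4SA arrays (-0.30, beside -0.36 for the respiratory chain genes).

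**Figure D5:**
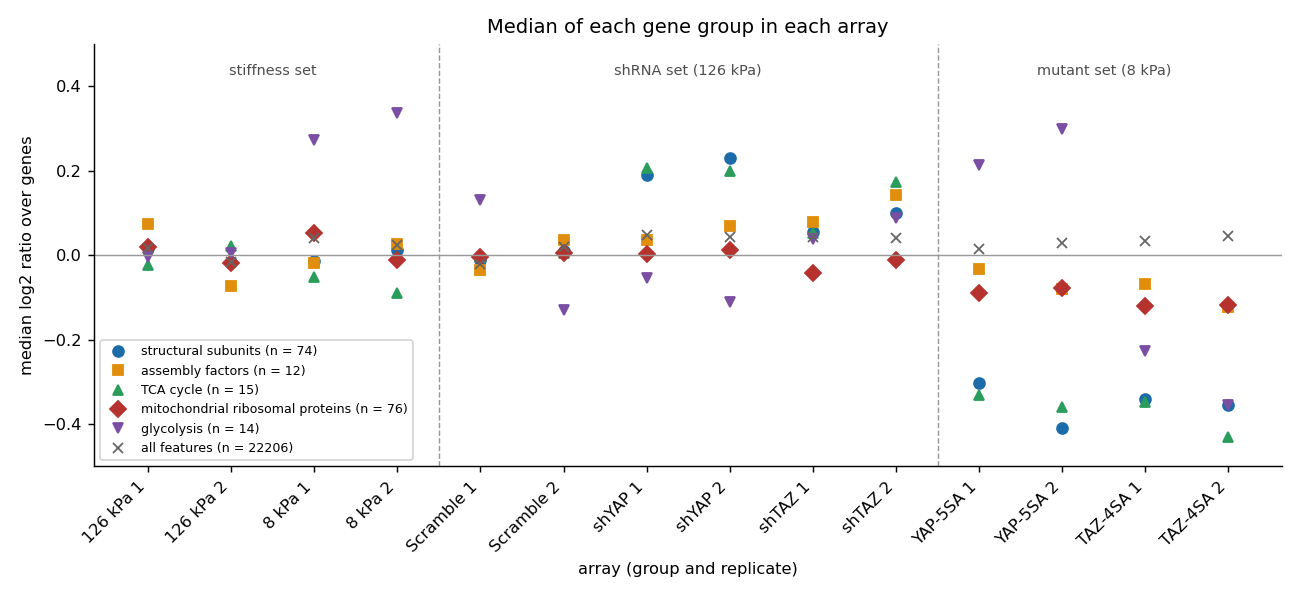
Median log2 ratio over the genes of each group (vertical axis) in each of the 14 arrays (horizontal axis). Structural subunits and TCA cycle genes have medians between 0.19 and 0.23 in the shYAP arrays and between -0.43 and -0.30 in the mutant arrays, mitochondrial ribosomal proteins stay between -0.12 and 0.052 in all arrays, and glycolysis genes are at 0.27 and 0.34 on 8 kPa.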

How the data were processed

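Total RNA of 7 groups was hybridised to 14 Clariom S Mouse arrays, 2 per group, which limits the precision. Per the submitters' processing notes, the authors used Affymetrix Expression Console (version 1.4). What the authors deposited are log2 ratios in 3 sets (4, 6 and 4 arrays), and further settings are not given in the sources used here. Genes were named from the platform's probe table (19572 features with 1 symbol, 2634 with none). Features measured on all arrays of the set were fitted with limma 3.58.1 (R 4.3.3; lmFit, eBayes) within the set, leaving 2, 3 and 2 residual degrees of freedom, and p-values were adjusted over all of them with a threshold of 0.05. The step was also run on simulated data with independent noise for each feature. Such data hold no signal shared by the features of an array, and the outcome is not reported here. No test was run over a gene list. Groups do not overlap where all differences between single arrays have the same sign. The respiratory chain genes, lists and motifs were chosen with earlier results of these data known. Genes named were, per comparison, those past the test, the 10 largest differences, set catalytic subunits, isoform pairs and c-ring genes (differences of the set genes mostly where above their SE), and up to 3 per other list; Sdhc, Sdhd, Ndufs7, Atp5e and other genes named outside these were chosen after their values were seen. Alternatives were centring, a 14-array fit, a replicate block, only the groups compared, structural subunits only, and each array left out.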

Additional observations from a re-analysis of the deposited data

Results flagged for a closer look

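Ndufa4l2 differed between the groups given YAP-5SA and TAZ-4SA on the same gel by the test of the difference itself: YAP-5SA minus TAZ-4SA was 1.59 on the log2 scale (adjusted p = 0.0399 from limma, n = 2 arrays per group), and both YAP-5SA arrays were above both TAZ-4SA arrays. It was the only respiratory chain gene to differ past that test between the mutants, and none did so between shYAP and shTAZ. Groups of 2 arrays are too small for a check of single outlying arrays.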

How the results depend on the processing

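Over the 82 differences of named respiratory chain genes, 628 values under alternative settings were computed: 619 kept direction and side of the threshold, 6 passed only under the alternative, 3 changed sign and 0 lost a call. The sign changes came from leaving out 1 array: Sdhaf3 on 8 kPa ranged from -0.65 to 0.16, Ndufaf2 with shTAZ from -0.030 to 0.57, and Ndufa4l2 in shYAP minus shTAZ from -0.62 to 0.091. In 1 fit to all 14 arrays, which takes the spread from more arrays, 1 gene passed as higher and 1 as lower with shYAP, 1 as lower in shYAP minus shTAZ and 2 as higher in YAP-5SA minus TAZ-4SA. The share of all features past the test in that fit was not computed, so these calls have no background beside them. With each array centred on its median, the median difference of the genes was -0.044 on 8 kPa, 0.14 with shYAP and 0.057 with shTAZ. With structural subunits only, the shYAP median was 0.22, no gene passed between the mutants (0, since Ndufa4l2 is no structural subunit in this sense), and the genes lower without overlap numbered 3 with shYAP, 1 with shTAZ and 4 in shYAP minus shTAZ. With each array left out in turn, the medians ranged from -0.024 to 0.027 on 8 kPa, 0.16 to 0.23 with shYAP, 0.070 to 0.11 with shTAZ and 0.061 to 0.13 in shYAP minus shTAZ. The genes past the test as higher with shYAP then numbered 0 to 2, in fits that assume the lone array of a group to vary like the other groups. Genes without overlap, for which fewer arrays must differ then, numbered 24 to 37 higher and 33 to 39 lower on 8 kPa. They numbered 9 to 14 lower with shYAP, 5 to 12 lower with shTAZ and 12 to 18 lower in shYAP minus shTAZ. In YAP-5SA minus TAZ-4SA they numbered 28 to 43 higher and 29 to 41 lower. The share over all features was not computed with an array left out, so these counts do not set the genes apart from other features. The sources used here do not state whether arrays with the same replicate number were paired. The correlation of the deviations of such arrays was 0.050 (126 and 8 kPa), 0.20 (scramble and shYAP), -0.023 (scramble and shTAZ), -0.00075 (shYAP and shTAZ) and 0.15 (YAP-5SA and TAZ-4SA). With a replicate block, 0 genes passed on 8 kPa and in the shRNA set and 1 passed as higher with YAP-5SA (Ndufa4l2, adjusted p = 0.0312 from limma), so no count of calls moved. With 2 arrays per group and 2 or 3 residual degrees of freedom, small differences of single genes were not detectable, and signal over background was not analysed here because the values are ratios.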
